A study of Homo sapiens with 8 samples.

Results

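The galactose pathway genes described here are GALK1, GALK2, GALT, GALM, PGM1 and UGP2. They were followed by every probe set (a group of short probes that is read as 1 value) listed with exactly 1 of these gene symbols, which gave 13 probe sets of 6 genes, out of 54613 probe sets and 19775 genes measured. The group was formed around the low GALK1 values that followed NR4A1 CEAA and the unequal fall of its probe sets, so that every GALK1 value is a description and no test was made on it. Kasumi-1 is an established human line of acute myeloid leukemia with the AML-ETO fusion. All cells were electroporated with mRNA made in vitro, which encoded GFP as the control (3 arrays), wild type NR4A1 (NR4A1 WT, 3 arrays), or NR4A1 with a mutated zinc finger in its DNA binding domain (NR4A1 CEAA, 2 arrays). RNA was taken 6 h after electroporation and measured on Affymetrix U133 Plus 2.0 arrays, and the comparisons address which expression changes follow NR4A1 and which follow its mutated form. The expression is transient, the cells are of 1 line, and the sources used here do not say whether arrays of a group came from separate cultures, so that the p-values cover the spread between these arrays alone, which may be technical.

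Cells use galactose through the Leloir pathway. The mutarotase GALM converts beta-D-galactose to the alpha form, the kinase GALK1 phosphorylates it, and the uridylyltransferase GALT exchanges galactose 1-phosphate with UDP-glucose to give UDP-galactose and glucose 1-phosphate. UGP2 makes UDP-glucose from glucose 1-phosphate, and the phosphoglucomutase PGM1 links glucose 1-phosphate to glucose 6-phosphate. GALK2 is related to GALK1 in sequence and acts mainly on N-acetylgalactosamine. UDP-galactose is the donor for galactose in glycoproteins and glycolipids, and loss of GALT or GALK1 is known as a cause of galactosemia.

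Promoter windows, from 250 bases before to 50 after an annotated start, were taken from RefSeq on build GRCh38.p14. The window of GALK1 is shown because its signal had the largest difference of the 6 genes. Those of the 2 annotated starts of GALK2 are shown because probe sets of this gene differed in opposite directions with NR4A1 CEAA. UGP2 and PGM1 also have several windows each, and a link between starts and probe sets was not tested. Each sequence runs 5′ to 3′ on the strand of its gene, and capitals mark the E-box CACGTG.

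GALK1 (chr17:75765143-75765442, minus strand): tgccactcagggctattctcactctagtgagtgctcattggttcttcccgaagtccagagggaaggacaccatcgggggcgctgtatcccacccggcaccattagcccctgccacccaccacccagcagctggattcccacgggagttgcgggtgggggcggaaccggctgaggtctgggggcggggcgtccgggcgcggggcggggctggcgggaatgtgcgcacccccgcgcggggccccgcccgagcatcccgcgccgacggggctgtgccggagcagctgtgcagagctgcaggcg

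GALK2, first start (chr15:49155524-49155823, plus strand): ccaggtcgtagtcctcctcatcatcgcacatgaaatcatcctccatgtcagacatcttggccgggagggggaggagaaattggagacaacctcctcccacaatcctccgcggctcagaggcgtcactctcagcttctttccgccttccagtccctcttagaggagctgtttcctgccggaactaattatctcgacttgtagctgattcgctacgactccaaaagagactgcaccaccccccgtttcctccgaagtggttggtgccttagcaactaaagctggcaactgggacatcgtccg

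GALK2, second start (chr15:49169766-49170065, plus strand): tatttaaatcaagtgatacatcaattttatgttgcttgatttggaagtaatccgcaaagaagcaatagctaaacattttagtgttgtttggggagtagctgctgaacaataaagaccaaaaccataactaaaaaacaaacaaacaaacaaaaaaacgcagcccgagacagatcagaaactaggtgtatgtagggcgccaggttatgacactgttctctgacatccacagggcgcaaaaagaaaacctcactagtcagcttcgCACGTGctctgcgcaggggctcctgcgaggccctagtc

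The GALK1 window was 71.0% G and C, and those of GALK2 were 54.7% and 42.7%. In the 10 windows of the 6 genes, 3 motifs were searched on both strands. AAAGGTCA, the NBRE that NR4A receptors bind as monomers, was found in 0 of the 10 windows and in 1.22% of all 35116 windows of this length. CCGGAAG, an ETS core, was found in 0 of the 10 and in 10.3% of all windows. CACGTG was found in 2 of the 10 and in 7.26% of all windows, once in GALT at base 164 of its window and once at base 263 of the window of the second GALK2 start. Each match describes only the sequence of the window.

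All levels are log2 values, in which a difference of 1 is a doubling, and levels of different probe sets are not amounts that can be set against each other. GALK1 was covered by 2 probe sets, 204374_s_at and 229458_s_at. On 204374_s_at, its log2 level was 8.60, 8.52 and 8.65 with GFP, 8.09, 8.31 and 8.25 with NR4A1 WT, and 6.72 and 6.74 with NR4A1 CEAA. The order was GFP, NR4A1 WT, NR4A1 CEAA from high to low, and no array of any group reached into another group. The group means were 8.59 ± 0.06 (SD, n = 3), 8.22 ± 0.11 (SD, n = 3) and 6.73 ± 0.01 (SD, n = 2). The mean with NR4A1 CEAA was therefore lower than with GFP by a log2 difference of -1.86 (SE 0.08), or 3.64-fold, and the mean with NR4A1 WT by -0.37 (SE 0.07).

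On 229458_s_at, GALK1 read 5.56, 5.55 and 5.47 with GFP, 5.24, 5.58 and 5.46 with NR4A1 WT, and 5.23 and 5.06 with NR4A1 CEAA. Both NR4A1 CEAA arrays were again the lowest of the 8, with replicate 1 nearly level with the lowest NR4A1 WT array, whereas the GFP and NR4A1 WT arrays overlapped. The log2 difference from GFP was -0.38 (SE 0.11) with NR4A1 CEAA, which is 1.3-fold, and -0.10 (SE 0.10) with NR4A1 WT. The latter was -0.01 without NR4A1 WT replicate 1 and -0.18 without NR4A1 WT replicate 2. Thus both probe sets were lower with NR4A1 CEAA in every array, but by different amounts.

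The unequal fall was followed within each array as the log2 ratio of 204374_s_at to 229458_s_at. This ratio was 3.04, 2.97 and 3.18 with GFP, 2.85, 2.73 and 2.79 with NR4A1 WT, and 1.49 and 1.68 with NR4A1 CEAA. It is the change of the ratio between groups, and not the ratio itself, that can be read, and the 3 groups did not overlap in it. Of the 10523 genes with 2 or more probe sets, 0.504% had a spread between their probe sets in the log2 difference of NR4A1 CEAA from GFP as wide as that of GALK1 (1.48, against a median of 0.27 over these genes). For NR4A1 WT against GFP the GALK1 spread was 0.27, a width reached by 34.2% of genes. Among the 3663 genes with all probe sets above the array median, these shares were 0.683% and 23.5%. The unequal fall was itself used to form the group, so these shares are a description and not a test. Which part of the GALK1 transcript each probe set reads was not analysed here.

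**Figure D1:**
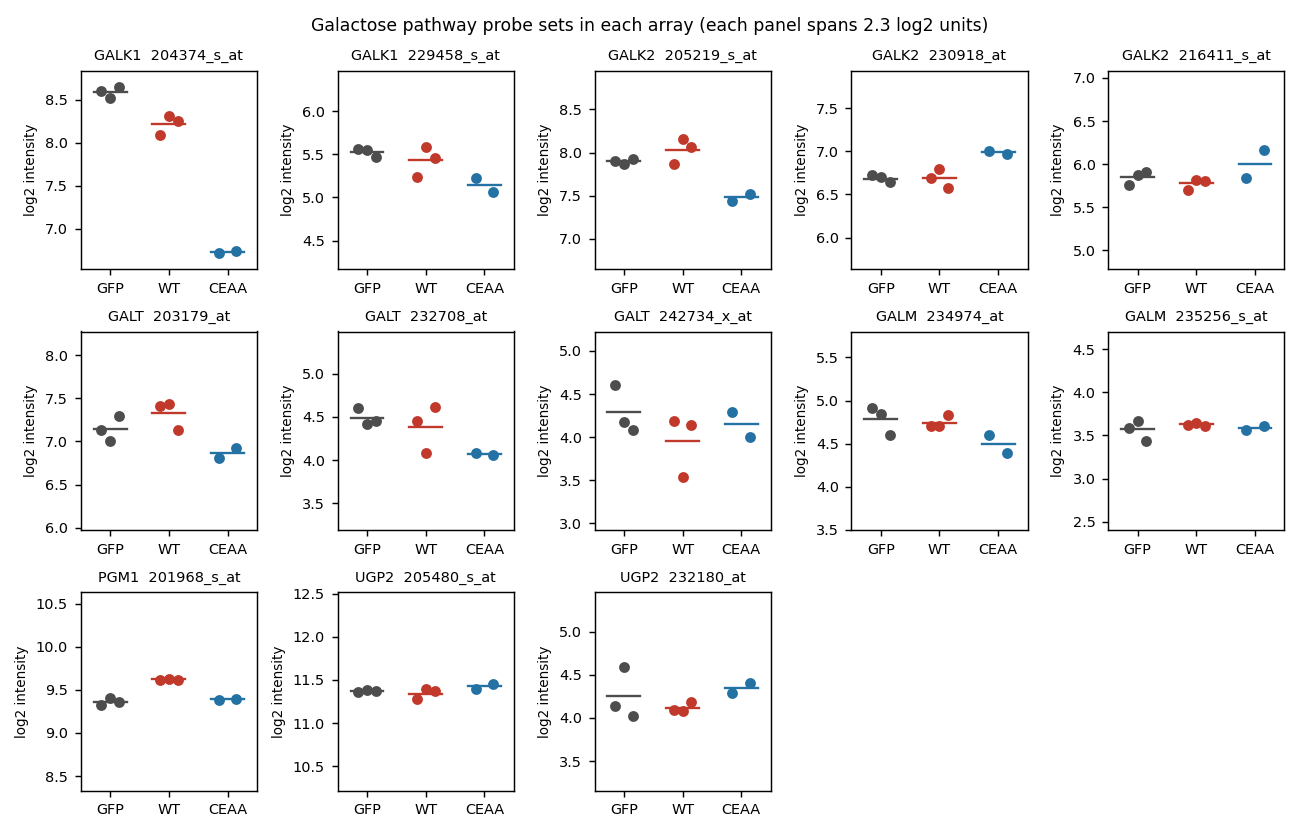
Log2 level of each of the 13 probe sets in each of the 8 arrays, 1 panel a probe set and 1 point an array, by group (GFP, NR4A1 WT, NR4A1 CEAA), with a bar at each group mean; all panels span the same height in log2 units. On GALK1 204374_s_at the NR4A1 CEAA arrays lie at 6.72 and 6.74, below all others, while on 229458_s_at they lie at 5.23 and 5.06, close under the rest.

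Outside GALK1, 11 probe sets of the other 5 genes were tested in all 3 comparisons with limma. With NR4A1 WT against GFP, 1 of the 11 was higher and 0 were lower at an adjusted p under 0.05, where 10.6% of all probe sets were called. Without adjustment, limma gave 1 higher and 0 lower at p under 0.05, where 22.6% of all probe sets passed in either direction, and Rank Product, the test the study names, called 0. With NR4A1 CEAA against GFP, 1 was higher and 1 was lower, beside 12.7% of all probe sets called. This is the comparison that formed the group, and nothing is read from that share. NR4A1 WT against NR4A1 CEAA, which tests the difference between both forms, had 3 higher and 1 lower, and 22.1% of all probe sets were called. Rank Product called 0 of the 11 in each of these comparisons as well. The share of all probe sets that Rank Product called is not given here, so nothing is read from its counts, here or below. The median log2 difference of the 11 was -0.02, 0.02 and 0.04 in the 3 comparisons, and that of all probe sets was 0.00, -0.01 and 0.02. The groups did not overlap for 1, 6 and 9 of the 11, where 27.3%, 46.4% and 47.2% of all probe sets did not. The first pair of comparisons shares the GFP arrays, so their values are given side by side only. NR4A1 WT against NR4A1 CEAA uses the NR4A1 CEAA arrays whose low GALK1 values formed the group, so nothing is read from its share either.

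GALK2, the second kinase of the set, had probe sets that moved apart with NR4A1 CEAA. On 205219_s_at, its level was 7.90, 7.87 and 7.93 with GFP, 7.87, 8.16 and 8.06 with NR4A1 WT, and 7.44 and 7.52 with NR4A1 CEAA. Both NR4A1 CEAA arrays lay below the other 6, and the GFP and NR4A1 WT arrays overlapped. The log2 difference of NR4A1 CEAA from GFP was -0.42 (SE 0.09, limma adjusted p = 0.0193), and NR4A1 WT was higher than NR4A1 CEAA by 0.55 (SE 0.09, limma adjusted p = 0.00277). Against GFP, NR4A1 WT differed by 0.13 (limma adjusted p = 0.412). The difference from GFP stayed at -0.46 to -0.38 with any array left out, but it no longer passed in 4 of these 5 fits, where limma gave adjusted p = 0.057 without GFP replicate 1, 0.064 without GFP replicate 3, 0.143 without NR4A1 CEAA replicate 1 and 0.0843 without NR4A1 CEAA replicate 2. The range of the adjusted p over all its alternatives was 0.00136 to 0.245, the highest being the Rank Product q. The difference between both NR4A1 forms passed with each array left out (limma adjusted p 0.0013 to 0.034) but not by Rank Product (q = 0.182).

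GALK2 230918_at went the other way. Its level was 6.72, 6.70 and 6.64 with GFP, 6.69, 6.79 and 6.57 with NR4A1 WT, and 7.0 and 6.97 with NR4A1 CEAA. Here both NR4A1 CEAA arrays lay above the other 6. NR4A1 CEAA was higher than GFP by 0.30 on the log2 scale (SE 0.08, limma adjusted p = 0.0392), and NR4A1 WT was lower than NR4A1 CEAA by a log2 difference of -0.30 (SE 0.08, limma adjusted p = 0.025). The difference from GFP stayed at 0.28 to 0.32 with any of the 5 arrays left out and at 0.28 with each array centred on its median, but it passed in none of these fits (limma adjusted p 0.0822 to 0.197, and 0.0613 with centring), within a range of 0.0124 to 0.664 over its alternatives. The difference between both NR4A1 forms was -0.36 to -0.25 with an array left out, and it did not pass in limma without NR4A1 CEAA replicate 1 (adjusted p = 0.137), NR4A1 CEAA replicate 2 (adjusted p = 0.104) or NR4A1 WT replicate 3 (adjusted p = 0.0611), within a range of 0.00792 to 0.792. Rank Product did not call either.

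The remaining GALK2 probe set, 216411_s_at, read 5.76, 5.88 and 5.91 with GFP, 5.70, 5.82 and 5.81 with NR4A1 WT, and 5.84 and 6.17 with NR4A1 CEAA. The NR4A1 CEAA arrays differed from each other by more than the spread within the other groups. It passed in none of the 3 comparisons with all arrays (limma adjusted p = 0.721, 0.408 and 0.17), whereas NR4A1 WT against NR4A1 CEAA passed without NR4A1 CEAA replicate 1 (limma adjusted p = 0.0482, in a range of 0.0482 to 0.926). The spread of the 3 GALK2 probe sets in their log2 difference of NR4A1 CEAA from GFP was 0.73, a width reached by 8.07% of genes with 2 or more probe sets. In the same comparison the spreads of GALT, GALM and UGP2 were 0.28, 0.31 and 0.04, beside the median of 0.27 over all such genes.

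GALT, the transferase that follows galactokinase, was read best on 203179_at, its only probe set above the median of all probe sets in every array. It read 7.13, 7.01 and 7.29 with GFP, 7.41, 7.44 and 7.13 with NR4A1 WT, and 6.81 and 6.93 with NR4A1 CEAA. The NR4A1 CEAA arrays were the lowest of the 8, and those of GFP and NR4A1 WT overlapped. NR4A1 WT was higher than NR4A1 CEAA by 0.46 on the log2 scale (SE 0.12, limma adjusted p = 0.0215), while neither form passed against GFP (log2 difference 0.18, limma adjusted p = 0.356, and -0.27, limma adjusted p = 0.172). That difference was 0.40 to 0.55 with an array left out, and it did not pass in limma without NR4A1 CEAA replicate 1 (adjusted p = 0.147), NR4A1 CEAA replicate 2 (adjusted p = 0.072), NR4A1 WT replicate 1 (adjusted p = 0.0581) or NR4A1 WT replicate 2 (adjusted p = 0.06), within a range of 0.003 to 0.34 over its alternatives.

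The other GALT probe sets lay under the array median in all 8 arrays, and no detection call was available, so that they are not shown to be above background. GALT 232708_at read 4.60, 4.42 and 4.45 with GFP, 4.45, 4.08 and 4.62 with NR4A1 WT, and 4.08 and 4.06 with NR4A1 CEAA. It did not pass against GFP for NR4A1 CEAA (log2 difference -0.42, limma adjusted p = 0.0904) with all arrays in the fit, but passed with array weights (limma adjusted p = 0.0303) and with only the arrays of the groups compared (limma adjusted p = 0.0181), in a range of 0.0181 to 0.3. NR4A1 WT against NR4A1 CEAA (0.32, limma adjusted p = 0.159) passed without NR4A1 WT replicate 2 (limma adjusted p = 0.0116, in a range of 0.0116 to 0.624). GALT 242734_x_at, whose suffix marks probes that can bind other transcripts, ranged from 3.54 to 4.61 and passed in no comparison (limma adjusted p = 0.375, 0.747 and 0.607).

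GALM, which opens the pathway, was dim on both probe sets. GALM 234974_at read 4.91, 4.84 and 4.60 with GFP, 4.70, 4.70 and 4.83 with NR4A1 WT, and 4.60 and 4.39 with NR4A1 CEAA, and was at or above the array median in 3 of the 8 arrays. NR4A1 CEAA replicate 1 was level with the lowest GFP array and NR4A1 CEAA replicate 2 lay below it. The log2 differences were -0.04 for NR4A1 WT against GFP (limma adjusted p = 0.87), -0.29 for NR4A1 CEAA against GFP (limma adjusted p = 0.127) and 0.25 between both forms (limma adjusted p = 0.147). GALM 235256_s_at stayed between 3.44 and 3.67 in all 8 arrays, under the array median, and passed in no comparison (limma adjusted p = 0.702, 0.911 and 0.785).

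PGM1, which connects the pathway with glycolysis and glycogen, was the member that rose with NR4A1 WT. On its 201968_s_at, the level was 9.33, 9.41 and 9.36 with GFP, 9.61, 9.63 and 9.61 with NR4A1 WT, and 9.38 and 9.39 with NR4A1 CEAA. All NR4A1 WT arrays were above the other 5, and the NR4A1 CEAA arrays fell within the range of GFP. NR4A1 WT was higher than GFP by 0.25 on the log2 scale (SE 0.06, limma adjusted p = 0.0233), which is 1.19-fold, and higher than NR4A1 CEAA by 0.23 (SE 0.06, limma adjusted p = 0.0313). NR4A1 CEAA differed from GFP by 0.02 (limma adjusted p = 0.877). The rise against GFP passed with none of the 6 arrays left out in turn (limma adjusted p 0.0503 to 0.0939), and that against NR4A1 CEAA with none of its 5 (limma adjusted p 0.0529 to 0.148), while the differences themselves stayed at 0.23 to 0.27 and 0.22 to 0.24. Over all alternatives the adjusted p ranged from 0.000476 to 0.78 and from 0.00155 to 0.942, with the Rank Product q highest in both.

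UGP2, the source of UDP-glucose, passed in no comparison on 205480_s_at. It read 11.36, 11.38 and 11.37 with GFP, 11.28, 11.39 and 11.37 with NR4A1 WT, and 11.40 and 11.45 with NR4A1 CEAA. NR4A1 WT differed from GFP by a log2 difference of -0.02 (95% interval -0.16 to 0.11, limma adjusted p = 0.881), and NR4A1 CEAA from GFP by 0.06 (95% interval -0.09 to 0.21, limma adjusted p = 0.65). Between both NR4A1 forms the difference was -0.08 (limma adjusted p = 0.463), and both NR4A1 CEAA arrays were above the other 6 by little. The second UGP2 probe set, 232180_at, ranged from 4.02 to 4.59, under the array median in all 8 arrays, and passed in no comparison (limma adjusted p = 0.636, 0.744 and 0.332).

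**Figure D2:**
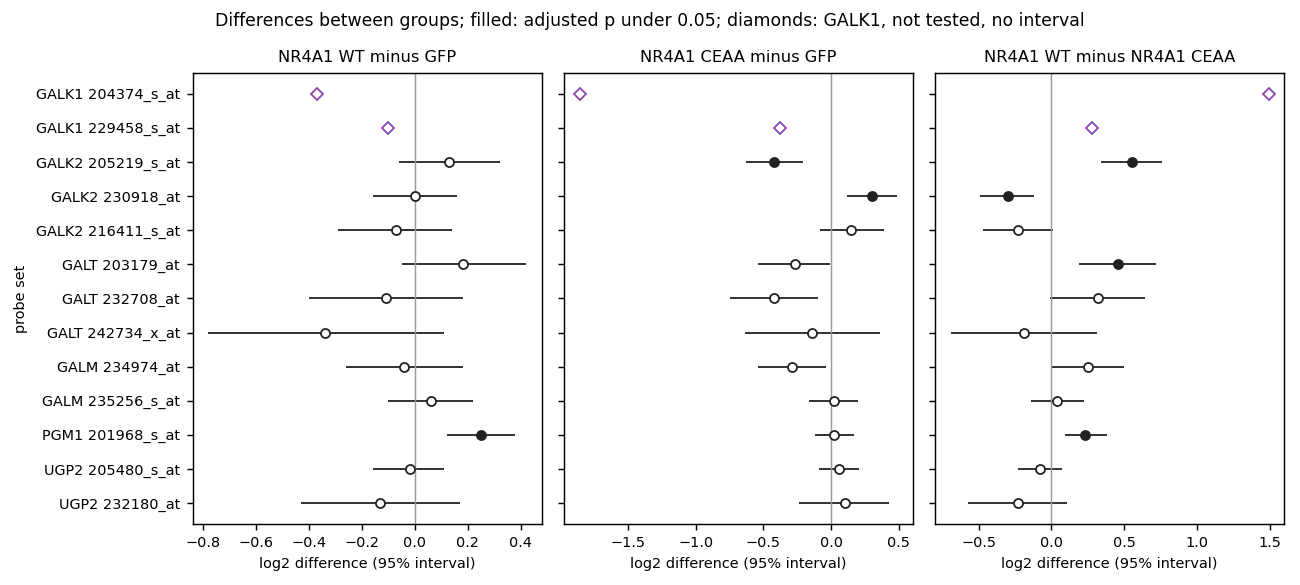
Log2 difference of each of the 13 probe sets in the 3 comparisons, with 95% intervals from the limma fit; filled points passed at an adjusted p under 0.05, open points did not, and diamonds are GALK1, which was not tested and has no interval. GALK1 204374_s_at stands at -1.86 for NR4A1 CEAA against GFP, whereas the 11 tested probe sets lie between -0.42 and 0.30 there.

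The genes whose probe sets resembled GALK1 most were ranked by the root mean square distance between log2 profiles over the 8 arrays, each profile centred on its GFP mean. This ranking uses the same values that formed the group and is a description. Nearest to GALK1 204374_s_at were RAC2 207419_s_at (distance 0.0372), a small GTPase of blood cells, and ENO1 217294_s_at (distance 0.0772), the glycolytic enolase. PRPF31 202407_s_at, a splicing factor (0.173), MAP2K2 213490_s_at, a kinase of the ERK cascade (0.191), and FARSA 216602_s_at, a subunit of phenylalanyl-tRNA synthetase (0.201), followed. With NR4A1 CEAA against GFP these 5 stood at log2 differences of -1.80, -1.73, -1.60, -1.96 and -1.54, and with NR4A1 WT against GFP at -0.39, -0.33, -0.24, -0.13 and -0.54.

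Each of these 5 genes was picked by 1 probe set with a fall near that of GALK1. Smaller falls on their other probe sets can therefore follow from the ranking itself, and nothing is read from this likeness to GALK1. How often genes with such a fall show it was not tested. With NR4A1 CEAA, the other probe sets of these genes were lowered less or not at all. The log2 difference from GFP was -0.43 on the other RAC2 probe set and -0.29 on that of FARSA. It was -0.24, -0.18 and 0.16 on those of ENO1, -0.17 and -0.47 on those of PRPF31, and -0.73 and 0.23 on those of MAP2K2. All 5 nearest probe sets and both GALK1 probe sets carry the suffix _s_at, which marks probes shared by several transcripts and is borne by 24.2% of the 41091 probe sets with 1 symbol. Of the 9 other probe sets of the 5 genes, 4 carry it too, such as RAC2 213603_s_at (-0.43) and ENO1 201231_s_at (-0.24). The part of probe design in these values was not tested. The nearest to GALK1 229458_s_at were PHKG1, FADS3, ILKAP, AP3D1 and GABRA2, at distances of 0.0557 to 0.0632, with log2 differences of NR4A1 CEAA from GFP of -0.37, -0.37, -0.34, -0.44 and -0.32. PHKG1 and GABRA2 had GFP means of 4.45 and 3.04, under the array median, and are not shown to be above background. Other probe sets stood at -0.25 for PHKG1, -0.08 for FADS3, -0.01 and 0.39 for AP3D1, and 0.02, 0.12 and -0.06 for GABRA2. The nearest probe sets of PHKG1 and GABRA2 do not carry the suffix _s_at, and those of FADS3, ILKAP and AP3D1 do. These genes were picked by the ranking too, so nothing is read from them.

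**Figure D3:**
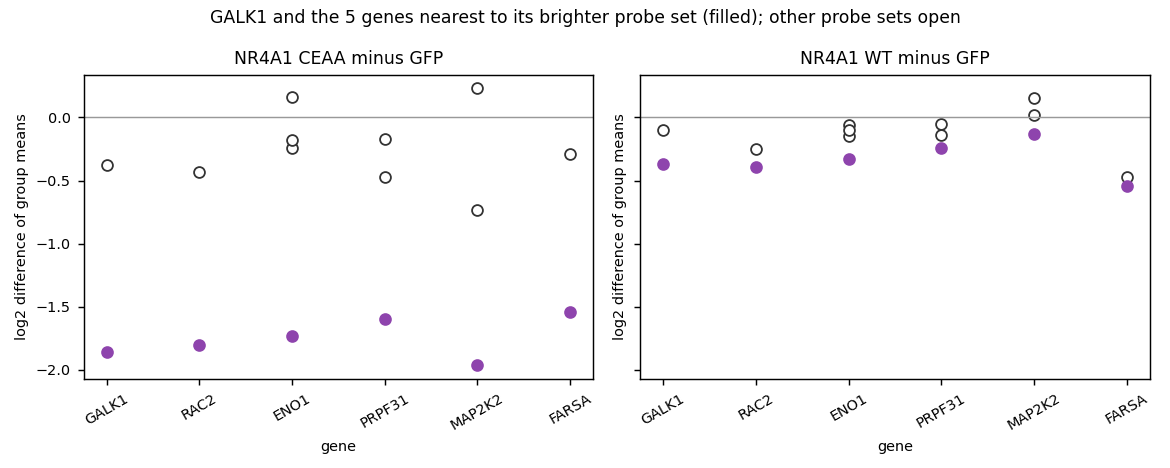
Log2 difference of NR4A1 CEAA from GFP for every probe set of GALK1 and of the 5 genes nearest to GALK1 204374_s_at, 1 point a probe set and, in the panel on the right, the same for NR4A1 WT; filled points are GALK1 204374_s_at and the probe sets nearest to it, and open points are the others. With NR4A1 CEAA the filled points lie between -1.54 and -1.96 and the open ones between -0.73 and 0.23.

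The wider pathway was followed by 38 other genes, of which 33 were measured, each by its brightest probe set. The others were not analysed here. Most of the 33 read above the array median in every array. The shares given for all genes, here and in the comparisons below, are over genes of any level. They were not matched to the 33 on level, so a larger share in the list is not read as a response of the pathway. With NR4A1 WT against GFP, 5 of the 33 rose and 10 fell (limma, adjusted p under 0.05), and their median log2 difference was -0.11, where 15.5% of all 19775 genes were called (7.48% higher and 8.03% lower) and the median of all genes was 0.00. By role, 3 of 5 genes of nucleotide sugar synthesis fell and 0 rose, 2 of 5 glycogen genes fell and 1 rose, and 3 of 9 genes that transport or use UDP-galactose fell and 1 rose. Among the 5 genes of glucose uptake and hexose phosphates 2 fell and 0 rose. The remaining rises were 1 of 3 phosphoglucomutase relatives, 1 of 4 GHMP kinases and relatives, and 1 of 2 genes of galactose release in the lysosome, and 0 genes of these roles fell. The count of 15 was 8 without GFP replicate 1, 8 without GFP replicate 3 and 9 without NR4A1 WT replicate 2, and Rank Product called 2. In the 6 fits with an array left out, 1 or 2 of the 33 passed as higher and 7 to 10 as lower. The rises among phosphoglucomutase relatives, GHMP kinases and relatives, and genes that transport or use UDP-galactose passed in none of these 6 fits. That of galactose release in the lysosome did not pass in 5 of them.

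The largest of these differences was that of GBE1, the glycogen branching enzyme, which read 10.84, 10.87 and 10.86 with GFP, 11.61, 11.60 and 11.60 with NR4A1 WT, and 10.90 and 10.95 with NR4A1 CEAA. All NR4A1 WT arrays were above the other 5, higher than GFP by 0.75 on the log2 scale (SE 0.06, limma adjusted p = 6.87e-05) and than NR4A1 CEAA by 0.67 (limma adjusted p = 0.000153). HK2, the hexokinase that makes glucose 6-phosphate, read 10.59, 10.72 and 10.54 with GFP, 10.03, 9.95 and 9.94 with NR4A1 WT, and 10.64 and 10.66 with NR4A1 CEAA. It fell with NR4A1 WT against GFP by 0.64 on the log2 scale (limma adjusted p = 0.000488), and its other probe sets were lower too, with log2 differences of -0.72 and -0.51 (limma adjusted p = 0.000284 and 0.0102). Rank Product also called GBE1 (q = 0.013) and HK2 (q = 0.0273) in this comparison. GNPNAT1, an acetyltransferase on the way to UDP-N-acetylglucosamine, and PYGB, a glycogen phosphorylase, each had a log2 difference of -0.49 (limma adjusted p = 0.000745 and 0.000834). A second, dim PYGB probe set was at 0.11 (limma adjusted p = 0.62). These 4 genes passed against GFP with each array left out in turn.

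With NR4A1 CEAA against GFP, 5 of the 33 rose and 4 fell with a median log2 difference of 0.01, where 14.8% of all genes were called (5.2% higher and 9.57% lower) with a median of -0.03. Of the GHMP kinases besides the galactokinases (MVK and FCSK) and the mevalonate pathway enzymes listed with them (PMVK and MVD), 2 of 4 fell and 0 rose, and of glucose uptake and hexose phosphates 2 of 5 fell and 0 rose. Rises were 2 of 3 phosphoglucomutase relatives, 2 of 5 genes of nucleotide sugar synthesis and 1 of 9 that transport or use UDP-galactose, with 0 falls in these roles, and 0 of 2 genes of galactose release in the lysosome passed. With a GFP array left out, 4 of the 33 rose and 2 or 3 fell, so these counts by role do not all hold. PMVK, the phosphomevalonate kinase, read 10.02, 10.02 and 10.17 with GFP, 9.78, 9.89 and 9.88 with NR4A1 WT, and 9.47 and 9.50 with NR4A1 CEAA. The 3 groups did not overlap, and NR4A1 CEAA was lower than GFP by a log2 difference of -0.59 (SE 0.08, limma adjusted p = 0.00251, Rank Product q = 0.0492). MVD, the mevalonate diphosphate decarboxylase, had a log2 difference of -0.53 (limma adjusted p = 0.0335). It was -0.67 to -0.39 with an array left out and did not pass in limma without GFP replicate 1 (adjusted p = 0.0978), GFP replicate 3 (adjusted p = 0.0995), NR4A1 CEAA replicate 1 (adjusted p = 0.0703) or NR4A1 CEAA replicate 2 (adjusted p = 0.239). Its adjusted p ranged from 0.0129 to 0.239 over its alternatives.

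The largest rises with NR4A1 CEAA were those of UGDH, which oxidizes UDP-glucose to UDP-glucuronate, and PGM2L1, a phosphoglucomutase relative. UGDH read 6.86, 6.98 and 6.91 with GFP, 6.83, 6.65 and 6.83 with NR4A1 WT, and 7.44 and 7.39 with NR4A1 CEAA. Its log2 difference from GFP of 0.50 (limma adjusted p = 0.00647, in a range of 0.000518 to 0.307) was 0.47 and did not pass without NR4A1 CEAA replicate 1 (limma adjusted p = 0.0671). PGM2L1 rose by 0.49 (limma adjusted p = 0.00404), while its 4 other probe sets stood at 0.04, 0.03, 0.19 and 0.04 and did not pass. None of the 5 glycogen genes passed in this comparison in limma, with 0 also at an unadjusted p under 0.05, where 29.7% of all genes passed, and 0 by Rank Product. The count of 9 over the list was 3 without NR4A1 CEAA replicate 1, and Rank Product called 1.

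NR4A1 WT against NR4A1 CEAA had 6 of the 33 higher and 13 lower with a median log2 difference of -0.11, beside 27.2% of all genes called (15.6% higher and 11.5% lower) and a median of 0.03. Of nucleotide sugar synthesis 4 of 5 genes were lower with NR4A1 WT and 0 higher, and of the genes that transport or use UDP-galactose 4 of 9 were lower and 0 higher. Of the GHMP kinases and relatives 2 of 4 were higher and 0 lower, and of galactose release in the lysosome 1 of 2 was higher and 0 lower. Glucose uptake and hexose phosphates had 2 higher and 2 lower, glycogen 1 higher and 2 lower, and the phosphoglucomutase relatives 0 higher and 1 lower. The largest differences were those of HK2 (log2 difference -0.68, limma adjusted p = 0.000398), GBE1 (0.67), UGDH (-0.65, limma adjusted p = 0.0007) and SLC2A1, the glucose transporter GLUT1 (-0.62, limma adjusted p = 0.000942). A second, dim SLC2A1 probe set was at 0.05 (limma adjusted p = 0.715). These 4 passed with each array left out in turn, and Rank Product called 0 of the 33, where limma without adjustment had 6 higher and 14 lower at p under 0.05, beside 38.3% of all genes in either direction.

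**Figure D4:**
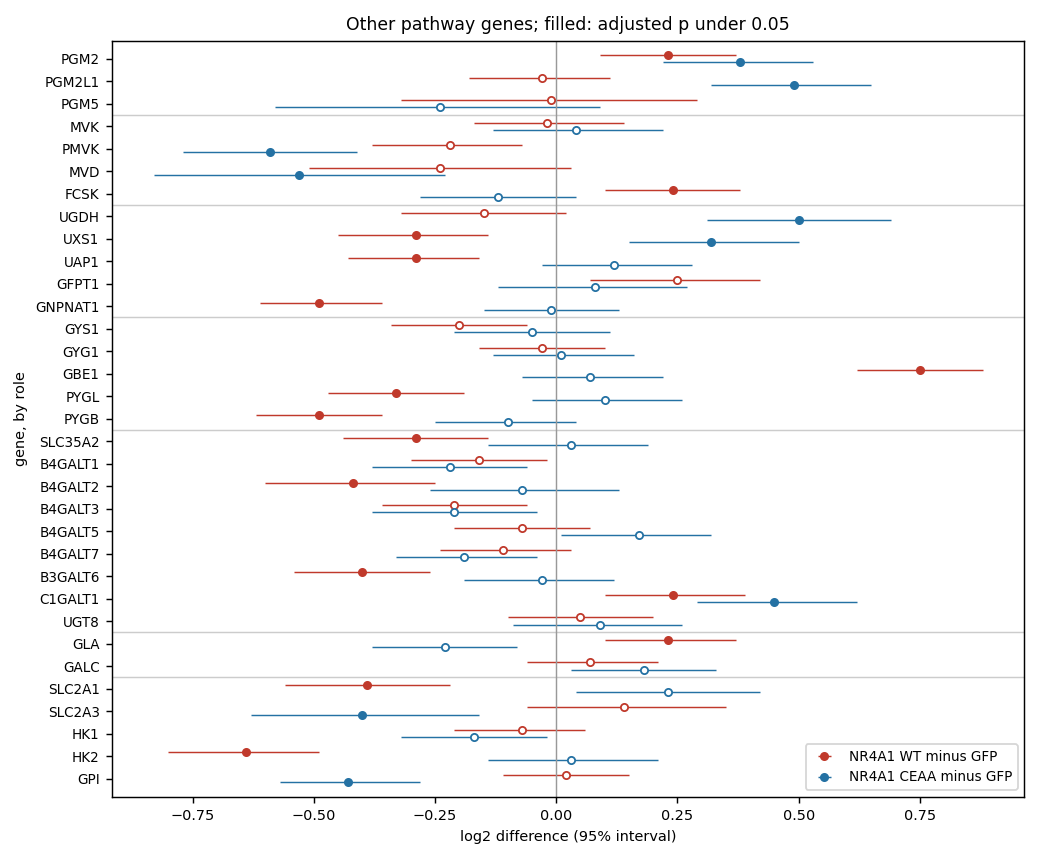
Log2 difference from GFP of the 33 other pathway genes, grouped by role, for NR4A1 WT in red and NR4A1 CEAA in blue, with 95% intervals from the limma fit; filled points passed at an adjusted p under 0.05 in limma. GBE1 lies at 0.75 and HK2 at -0.64 with NR4A1 WT, and PMVK lies at -0.59 and UGDH at 0.50 with NR4A1 CEAA.

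Over all arrays, the median of all probe sets lay between 4.755 and 4.802, and the SD between arrays of a group over the 13 probe sets was 0.01 to 0.36. NR4A1 itself read 5.06 to 6.66 on its 3 probe sets, and the 3 groups overlapped on each, with means of 6.45, 6.54 and 6.54 in the GFP, NR4A1 WT and NR4A1 CEAA arrays on the brightest. Whether these probe sets read the introduced RNA is not known here, so that they check nothing about the group labels. Of the 8 listed markers of this myeloid line 6 were measured, and all 6 lay above the array median in every array. Of 8 markers of other cells 6 were measured and 3 (CD3D, COL1A1 and EPCAM) lay above it, EPCAM with mean levels of 11.66, 11.47 and 11.82 in the GFP, NR4A1 WT and NR4A1 CEAA arrays. Their part in the differences above was not tested.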

How the data were processed

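RNA of electroporated Kasumi-1 cells was hybridized to 8 Affymetrix U133 Plus 2.0 arrays. The authors deposited log2 intensities, 1 per probe set and array, from RMA Express (Robust Multiarray Analysis: background correction, quantile normalization and summary of probes). The version is not given in the sources used here. Quantile normalization gives all arrays nearly the same distribution, so that a change shared by most genes cannot be seen. The number of arrays limits the precision.

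Groups were taken from the sample labels. Of the 54613 probe sets, 41091 had exactly 1 gene symbol in the platform annotation, 1801 had several and 11721 had none. None of those with several symbols named a member, and 6 of 6 members matched RefSeq by gene identifier. All probe sets were fitted in 1 model of the 3 groups in R 4.3.3 with lmFit and eBayes of limma 3.58.1 (no covariate, 3.69 prior and 5 residual degrees of freedom), and p-values were adjusted by Benjamini-Hochberg over all of them, with 0.05 as the threshold. GALK1 was not tested. Other pathway genes were each followed by their brightest probe set.

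Alternatives were Rank Product with 100 permutations (q up to 0.05), an adjusted p under 0.01, array weights, an intensity trend, a filter on dim probe sets, median centring, quantile normalization again, only probe sets with 1 symbol, 1 probe set a gene, only the arrays of the groups compared, the replicate number as a block, and leaving out each array. The fits were tested on simulated data.

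The members and gene lists were chosen with earlier results of these data known. All member probe sets are named, with, in each comparison, up to 4 other pathway genes with the largest difference among those that passed and the 5 genes nearest to each GALK1 probe set.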

Additional observations from a re-analysis of the deposited data

How the results depend on the processing

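The GALK1 log2 differences kept their sign under all 50 alternatives computed. On 229458_s_at for NR4A1 WT against GFP, -0.10 became -0.18 to -0.01 with an array left out. All 50 also moved by no more than the replicate SD. In groups this small, leaving out 1 array cannot move a difference by more than that SD. Nothing is therefore read from the size of the move in those fits. The counts over the 11 tested member probe sets were small and moved. For NR4A1 WT against GFP, 1 passed and 0 did at an adjusted p under 0.01, by Rank Product, with the replicate block, or with any array left out (0 to 0). For NR4A1 CEAA against GFP, 2 passed, against 0 at an adjusted p under 0.01, by Rank Product and with the replicate block, 1 with 1 probe set a gene or with median centring, and 0 to 1 with an array left out. For NR4A1 WT against NR4A1 CEAA, 4 passed, against 1 at an adjusted p under 0.01 and with the block, 0 by Rank Product, 2 with only the arrays of both groups, and 1 to 3 with an array left out. Fewer samples or probe sets, or a stricter threshold, are part of some of these settings. For the others the cause was not tested. The shares of all probe sets and genes that passed under these settings are not given here. These counts, and those of the other pathway genes below, therefore show only how the lists moved.

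Of the 33 other pathway genes, 15 passed for NR4A1 WT against GFP, against 7 at an adjusted p under 0.01, 2 by Rank Product and 8 to 12 with an array left out. For NR4A1 CEAA against GFP, 9 passed, against 1 by Rank Product, 17 with the filter on dim probe sets, 15 with the intensity trend and 3 to 7 with an array left out. For NR4A1 WT against NR4A1 CEAA, 19 passed, against 0 by Rank Product and 14 to 19 with an array left out.

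Replicate numbers did not pair the arrays. Deviations from the group means of arrays with the same number correlated at -0.03 to 0.06 over probe sets, and those of different numbers at -0.08 to 0.08. The block is therefore only an alternative.

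Values that changed sign lay between -0.19 and 0.15 with all arrays in the fit and had not passed. With NR4A1 WT against GFP, GALK2 230918_at was -0.01 with array weights. With an array left out it was -0.05 to 0.06, GALT 232708_at -0.22 to 0.04, GALM 234974_at -0.13 to 0.02, GALM 235256_s_at 0.00 to 0.11, UGP2 205480_s_at -0.04 to 0.01 and UGP2 232180_at -0.25 to 0.04. With NR4A1 CEAA against GFP, GALM 235256_s_at was 0.00 with median centring and -0.02 with the block. With an array left out it was -0.04 to 0.07, GALK2 216411_s_at -0.01 to 0.32, GALT 242734_x_at -0.29 to 0.02 and UGP2 232180_at -0.02 to 0.27. GALT 242734_x_at was -0.34 to 0.02 in NR4A1 WT against NR4A1 CEAA.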
